A study of Rattus norvegicus with 6 samples.

Results

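The 10 genes described here mark T cells and natural killer (NK) cells: Cd3d, Cd3e, Cd3g, Cd2, Cd4, Cd8a, Prf1, Gzmb, Nkg7 and Klrd1. They were taken by symbol from the deposited table of mRNA levels. All 10 were found among its 17030 symbols, and all 10 passed a minimum mean of 1 FPKM over the tumors. FPKM (fragments per kilobase, with single reads as the fragments) divides the reads of an mRNA by its length and by the reads of its library. A level per length can be compared between genes of a tumor, while comparisons between tumors depend on how the libraries were scaled.

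T cells read antigen through a receptor that cannot signal by itself. The CD3 chains encoded by Cd3d, Cd3e and Cd3g carry its signal into the cell, and CD4 or CD8 on the same cell binds the MHC molecule that presents the antigen. Cytotoxic T cells and NK cells kill by emptying granules that hold perforin, which opens the target membrane, and granzymes, which enter and cut proteins that trigger cell death. NK cells lack the T cell receptor and use receptors such as CD94, encoded by Klrd1. In rats the lineage markers are less exclusive than in mice, since rat macrophages also carry CD4 and rat NK cells also carry CD8 alpha chains.

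The samples were PAIII tumors of 6 rats, with 1 library per tumor. PAIII cells come from a prostate tumor kept by passage in rats, and they were injected under the skin of the flank of 2-month-old Lobund-Wistar rats with an intact immune system. Rats A1, A6 and A12 (digitoxin-treated, replicates 1, 2 and 3) received the cardiac glycoside digitoxin at 0.03 mg/kg daily from day 10, and rats B5, B9 and B14 (replicates 1, 2 and 3) received vehicle. Tumors were taken on day 40, and RNA came from 10 punches, each 1 mm wide, of 300-micron sections of viable tumor. The study chose treated rats with low, and control rats with high, serum levels of inflammatory cytokines for sequencing, so the groups were not drawn at random from the treated and control rats. The sequencing depth is unknown, since the table holds FPKM and no read counts.

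The libraries differed in what tissue they held, and this bears on every value that follows. mRNAs of lung epithelium were abundant in 4 of the tumors, although all 6 are labelled as PAIII tumor. The 9 measured lung genes summed to 104399 FPKM in A1, 211855 in A6, 47729 in B5 and 58058 in B9, but to 19.9 FPKM in A12 and 26.7 in B14. The defining surfactant mRNAs Sftpa1 and Sftpb and the type 2 cell gene Lamp3 were listed at 0 in both A12 and B14. A12 carried the digitoxin label and B14 the vehicle label, so each group held 1 tumor with very little lung mRNA. The fits below were also made without both. Of the tumors then left, A1 and A6 (digitoxin) had higher lung sums than B5 and B9 (vehicle). Summed cell cycle mRNAs were lower in A1 and A6 (312 and 48.9 FPKM) than in B5 and B9 (439 and 458). Treatment and tissue therefore cannot be told apart in that fit.

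**Figure D1:**
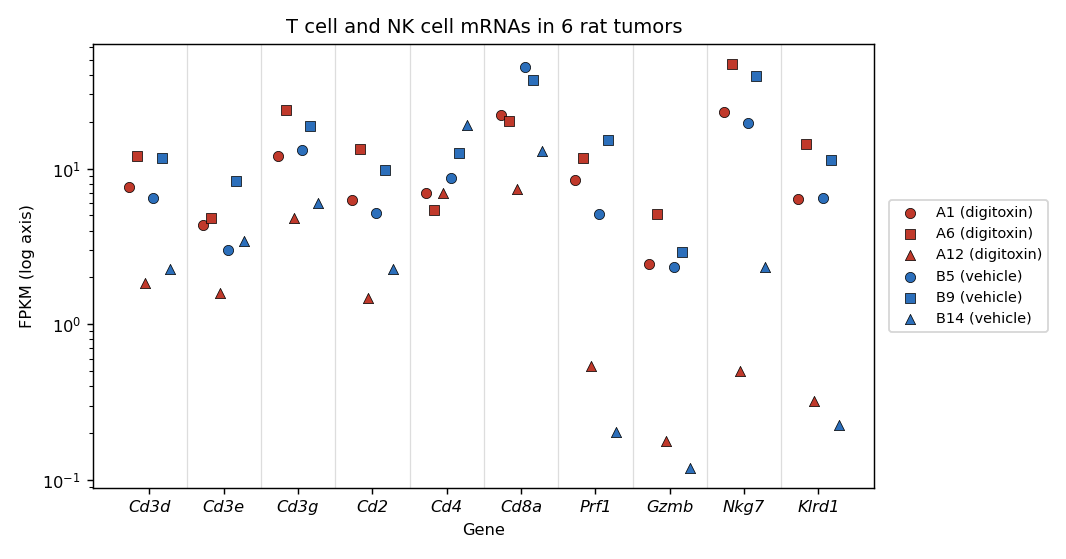
FPKM (y axis, log scale) of the 10 genes (x axis) in each of 6 tumors, red for digitoxin and blue for vehicle, with 1 point per tumor. The triangles, A12 and B14, are the lowest points of 8 genes, and for Prf1, Gzmb, Nkg7 and Klrd1 they lie more than 5-fold under each of the other 4 tumors.

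The promoters of the CD3 chains, which are subunits of 1 receptor, and of the granule genes are given first, because these are the genes whose levels the text compares within a group. RefSeq promoter sequences of the rat build GRCr8, from 250 bases before to 50 bases after the start of transcription, were matched for 8 of the 10 genes, and Cd4 and Klrd1 were not matched. Each line is written 5′ to 3′ on the strand of the gene, and capitals mark the letters AGGAAG (a core bound by ETS factors) or TGTGGT (a core bound by RUNX factors), read on either strand. Cd3d lies at chr8:54185269-54185568 on the plus strand, Cd3e at chr8:54211721-54212020 on the minus strand, and Cd3g at chr8:54183869-54184168 on the minus strand. Cd3g and Cd3d are transcribed away from each other from starts 1601 bases apart, and the start of Cd3e is 26251 bases from that of Cd3d.
Cd3d: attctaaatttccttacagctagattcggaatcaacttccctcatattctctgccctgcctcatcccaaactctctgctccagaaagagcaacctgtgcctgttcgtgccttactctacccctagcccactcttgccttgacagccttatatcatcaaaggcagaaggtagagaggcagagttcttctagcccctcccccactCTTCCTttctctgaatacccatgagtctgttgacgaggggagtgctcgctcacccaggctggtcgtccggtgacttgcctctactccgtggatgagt
Cd3e: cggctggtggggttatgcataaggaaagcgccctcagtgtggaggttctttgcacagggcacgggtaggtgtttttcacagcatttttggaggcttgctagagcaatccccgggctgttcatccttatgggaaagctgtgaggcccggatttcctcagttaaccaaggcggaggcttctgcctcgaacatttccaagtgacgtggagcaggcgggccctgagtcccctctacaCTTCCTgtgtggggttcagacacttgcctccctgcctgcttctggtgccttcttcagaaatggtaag
Cd3g: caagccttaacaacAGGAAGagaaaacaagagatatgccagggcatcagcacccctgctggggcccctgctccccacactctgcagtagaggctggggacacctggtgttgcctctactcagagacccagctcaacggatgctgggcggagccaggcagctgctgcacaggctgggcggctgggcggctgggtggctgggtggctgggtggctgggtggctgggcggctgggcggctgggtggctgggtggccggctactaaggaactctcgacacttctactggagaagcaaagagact

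The granule genes lie on separate chromosomes. The windows are chr20:29788790-29789089 on the plus strand for Prf1, chr15:34462420-34462719 on the minus strand for Gzmb, and chr1:102981247-102981546 on the plus strand for Nkg7.
Prf1: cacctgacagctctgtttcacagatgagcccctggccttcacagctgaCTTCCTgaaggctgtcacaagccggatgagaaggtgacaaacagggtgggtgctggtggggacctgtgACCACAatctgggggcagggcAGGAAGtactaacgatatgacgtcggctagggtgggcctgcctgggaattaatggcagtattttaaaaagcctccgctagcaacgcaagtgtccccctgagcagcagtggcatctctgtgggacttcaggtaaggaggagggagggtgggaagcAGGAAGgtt
Gzmb: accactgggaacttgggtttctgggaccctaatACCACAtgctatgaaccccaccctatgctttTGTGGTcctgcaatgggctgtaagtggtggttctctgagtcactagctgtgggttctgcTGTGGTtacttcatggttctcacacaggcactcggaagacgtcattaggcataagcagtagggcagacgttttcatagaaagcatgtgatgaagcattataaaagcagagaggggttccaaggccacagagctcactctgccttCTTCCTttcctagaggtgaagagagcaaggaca
Nkg7: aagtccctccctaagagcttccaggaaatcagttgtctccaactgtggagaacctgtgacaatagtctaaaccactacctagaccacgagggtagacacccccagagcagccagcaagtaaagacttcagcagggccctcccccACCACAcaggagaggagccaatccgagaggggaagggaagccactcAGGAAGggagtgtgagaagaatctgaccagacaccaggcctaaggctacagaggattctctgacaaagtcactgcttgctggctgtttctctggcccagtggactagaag

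The ETS core AGGAAG was found in 6 of the 8 promoters, against 34.5% of 33469 rat promoters of the same length. These 6 are the promoters printed above, with 1 match in each except Prf1, which held 3. The RUNX core TGTGGT was in 4 of 8 promoters, against 17.3% of all. Gzmb held 3 matches, at positions -217, -186 and -127 from its start, Cd2 held 2, and Prf1 and Nkg7 held 1 each. The T-box core GGTGTG was in the promoters of Cd2 and Cd8a, against 17.9% of all, and the GATA letters AGATAA were in none of the 8, against 11.6% of all. Both strands were searched, and no match overlapped a match to another of these motifs. A match describes letters in this window and was not tested as a binding site.

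Beginning with the CD3 chains, Cd3d (chromosome 8, 47900376 to 47905113 in the deposited table, whose build is not given in the sources used here) was at 7.59, 12.02 and 1.83 FPKM in the digitoxin tumors A1, A6 and A12. It was at 6.43, 11.6 and 2.28 FPKM in the vehicle tumors B5, B9 and B14. A12 and B14 were the lowest, and the groups overlapped throughout. The mean was 7.15 ± 5.11 FPKM with digitoxin and 6.78 ± 4.68 with vehicle (SD, n = 3 each), and the log2 fold change of FPKM + 1 was 0.0140 (SE 0.74). The 95% interval ran from -1.78 to 1.81, so a change of more than 3-fold in either direction was within it.

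Cd3g (chromosome 8, 47892830 to 47898776) encodes the gamma chain and followed the same order of tumors except between A1 and B5. It was at 12.05, 23.9 and 4.79 FPKM in A1, A6 and A12, and at 13.1, 18.9 and 6.03 FPKM in B5, B9 and B14. A6 and B9 were the highest and A12 and B14 the lowest, 1 of each group at either end. The log2 fold change was -0.0219 (SE 0.65), while the mean FPKM was slightly higher with digitoxin (13.6 ± 9.65 against 12.7 ± 6.44, SD, n = 3 each), so the sign depended on the scale.

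Cd3e (chromosome 8, 47915625 to 47926788) encodes the epsilon chain, which pairs with each of the other CD3 chains. It was at 4.34, 4.79 and 1.58 FPKM in A1, A6 and A12, and at 2.99, 8.36 and 3.44 FPKM in B5, B9 and B14. B14 was above B5 here, so Cd3e was 1 of the 2 genes in which A12 and B14 were not the lowest pair. The log2 fold change was -0.35 (SE 0.51, 95% interval -1.59 to 0.89), with means of 3.57 ± 1.74 FPKM with digitoxin and 4.93 ± 2.98 with vehicle (SD, n = 3 each).

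Cd3g was higher per length than Cd3d in all 6 tumors, by 1.59- to 2.64-fold. The ratio of Cd3g to Cd3e varied more, from 1.75 in B14 to 4.99 in A6, and Cd3d to Cd3e from 0.663 in B14 to 2.51 in A6. The mRNAs of the CD3 chains thus did not keep a fixed ratio across these tumors, and the precision of each FPKM is unknown.

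Cd2 encodes an adhesion receptor of T cells and NK cells. It was at 6.28, 13.3 and 1.47 FPKM in A1, A6 and A12, and at 5.21, 9.77 and 2.26 FPKM in B5, B9 and B14. The order was close to that of the CD3 chains, and the log2 fold change was 0.0794 (SE 0.76). The locus given for this row is chromosome 2, 223111197 to 223478957, which spans 367761 bases and overlaps the row of Igsf3, and the strand used in counting is not stated, so the values of Cd2 are uncertain. Over the 6 tumors, the centered profiles of Cd3d and Cd2 differed by a root mean square of 0.147 on the log2 scale, the smallest difference among the pairs of the 10 genes, followed by Cd3g with Cd2 (0.171) and Cd3d with Cd3g (0.183).

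**Figure D2:**
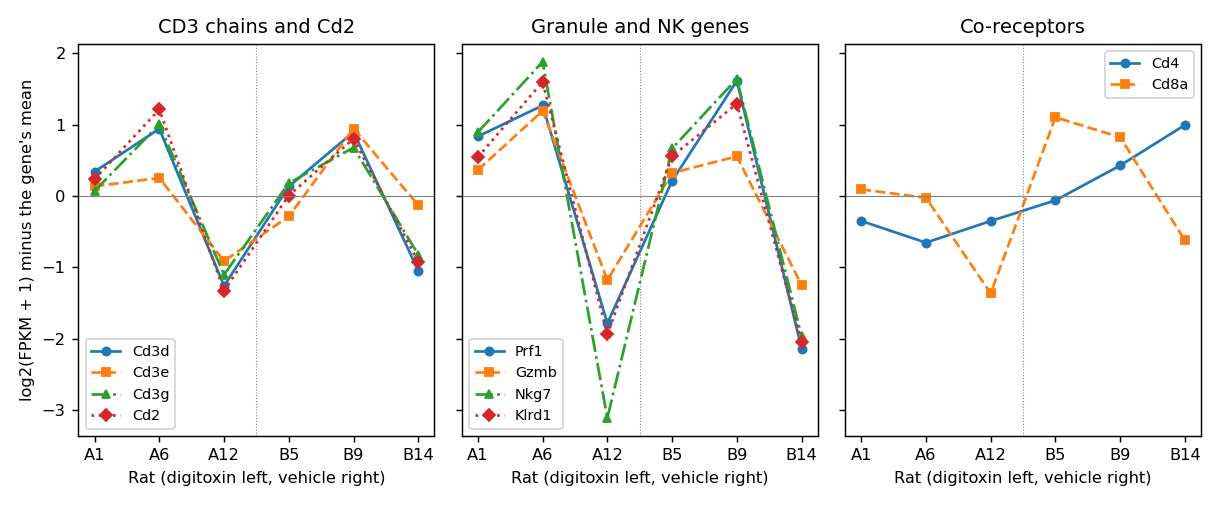
log2(FPKM + 1) minus the mean of the gene (y axis) in each tumor (x axis), with digitoxin left and vehicle right of the dotted line, and lines that join the values of 1 gene. Cd3d, Cd3g and Cd2 run together (differences of 0.147 to 0.183), Prf1, Nkg7 and Klrd1 drop furthest in A12 and B14 while Gzmb, a low mRNA on this scale, stays near the CD3 genes, and Cd4 alone has its highest value in B14 (19.2 FPKM).

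Cd4 and Cd8a, the co-receptors, gave the largest fitted differences between the groups among the 10 genes, both toward lower levels with digitoxin. Cd4 was at 6.94, 5.43 and 6.94 FPKM in A1, A6 and A12, and at 8.70, 12.6 and 19.2 FPKM in B5, B9 and B14. Every digitoxin tumor was under every vehicle tumor, which held for no other gene of the 10. Over the whole table, the same separation toward lower levels with digitoxin was met by 350 of 10749 rows tested, or 3.26%, and the single gene of 10 is to be read beside that share. The mean of Cd4 was 6.44 ± 0.870 FPKM with digitoxin and 13.5 ± 5.29 with vehicle (SD, n = 3 each).

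The log2 fold change of Cd4 was -0.90 (SE 0.36, 95% interval -1.77 to -0.0381), with an unadjusted p of 0.0431 in limma's test and an adjusted p of 0.926. An unadjusted p under 0.05 toward lower levels was reached by 29 of 10749 rows, or 0.27%. Without A12 and B14, which leaves 2 tumors a group, the log2 fold change of Cd4 was -0.68 with an unadjusted p of 0.141 in limma's test, and over all alternatives tried its unadjusted p in limma ran from 0.0275 to 0.151. B14, the tumor of highest Cd4, also held the highest sum of 14 macrophage mRNAs, 1765 FPKM against 977 to 1398 in the other tumors. Most of that sum in B14 came from the complement genes C1qa, C1qb and C1qc (435, 359 and 355 FPKM), whereas Cd68 (144 FPKM), Csf1r (32.8), Mrc1 (26.5) and Aif1 (172) were among the lowest 2 of the tumors there. Between the groups, 11 of the 14 macrophage genes were lower with digitoxin and 3 (Cd68, Marco and Aif1) were higher. Their median log2 fold change was -0.61, against -0.163 for all rows. Lists of other tissue markers shifted too. All 10 cell cycle genes were lower (median -1.21), while 8 of 9 lung genes and 9 of 10 endothelial genes were higher (medians 0.68 and 0.59). No gene of these lists passed an adjusted p of 0.05 in limma's test. Of the 14 macrophage genes, 2 did not overlap between the groups, as Cd4 did not, to be read beside the 3.26% of all rows. These were Mpeg1 (log2 fold change -1.59, unadjusted p = 0.0330, limma) and Msr1. Msr1 was at 18.9, 7.14 and 20.6 FPKM in A1, A6 and A12, and at 27.6, 21.1 and 46.2 FPKM in B5, B9 and B14. The part of macrophages in the Cd4 values was not tested. Cd4 lies on chromosome 4, 224400829 to 224425954, in the deposited table.

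Cd8a (chromosome 4, 164017632 to 164021870) was the gene with the highest mean of the 10. It was at 21.9, 20.1 and 7.35 FPKM in A1, A6 and A12, and at 45.2, 37.0 and 13.0 FPKM in B5, B9 and B14. A12 and B14 were again the lowest, and the groups overlapped only because B14 lay under A1 and A6. The mean was 16.5 ± 7.95 FPKM with digitoxin and 31.7 ± 16.7 with vehicle (SD, n = 3 each), and the log2 fold change was -0.87 (SE 0.60, 95% interval -2.33 to 0.60) with an unadjusted p of 0.199 in limma's test.

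The unadjusted p of Cd8a depended on the fit. Without A12 and B14 the log2 fold change was -0.93 (SE 0.28, 95% interval -1.61 to -0.24) with an unadjusted p of 0.0157 and an adjusted p of 0.390 in limma's test. In a fit that paired the tumors by replicate number (a block) it was -0.87 (SE 0.26) with an unadjusted p of 0.0146 and an adjusted p of 0.638. Such unadjusted calls were also commoner over the whole table in these fits. Without A12 and B14, 768 of 10765 rows, or 7.13%, were lower with an unadjusted p under 0.05 in limma's test. The block raised the rows past 0.05 in either direction from 36 to 446. The tumors left without A12 and B14 also differed by group in lung and cell cycle mRNAs, as given above. Their endothelial sums differed too (939 and 1750 FPKM in A1 and A6, 437 and 782 in B5 and B9). The direction of Cd8a was the same when any 1 tumor was left out, with log2 fold changes of -1.40 to -0.40, and that of Cd4 likewise, from -1.16 to -0.63.

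Cd8b, the beta chain that pairs with Cd8a on cytotoxic T cells, was at 6.80, 2.82 and 2.93 FPKM in A1, A6 and A12, and at 9.10, 5.78 and 6.25 FPKM in B5, B9 and B14. Its log2 fold change was -0.69 (SE 0.41, adjusted p = 0.926, limma). Unlike Cd8a, Cd8b was lowest in A6, and its level in B14 exceeded that in B9.

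Prf1 (chromosome 20, 32706312 to 32711821) encodes perforin. It was at 8.46, 11.8 and 0.540 FPKM in A1, A6 and A12, and at 5.14, 15.2 and 0.204 FPKM in B5, B9 and B14. The highest tumor exceeded the lowest by 74.8-fold, and both of these were vehicle tumors. The log2 fold change between the groups was 0.21 (SE 1.19), with a 95% interval from -2.68 to 3.10.

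Gzmb (chromosome 15, 39296949 to 39300381) encodes granzyme B and had the lowest mean of the 10 genes. It was at 2.42, 5.09 and 0.177 FPKM in A1, A6 and A12, and at 2.33, 2.91 and 0.120 FPKM in B5, B9 and B14. The highest and lowest tumors differed by 42.3-fold, with a log2 fold change of 0.25 (SE 0.77) between the groups. Because 1 FPKM was added before taking logs, a gene this low has its differences understated on that scale.

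Nkg7 (chromosome 1, 99569677 to 99570745) encodes a membrane protein of cytotoxic granules that takes part in their release. It was at 23.1, 46.8 and 0.504 FPKM in A1, A6 and A12, and at 19.6, 39.5 and 2.33 FPKM in B5, B9 and B14. Nkg7 was the highest of the 10 genes in A1, A6 and B9, but was the eighth in A12 and the fifth in B14. Its highest and lowest tumors differed by 92.9-fold, the widest span of the 10 genes. The log2 fold change was -0.23 (SE 1.51), while the mean was 23.5 ± 23.2 FPKM with digitoxin and 20.5 ± 18.6 with vehicle (SD, n = 3 each), so here too the sign depended on the scale.

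Klrd1 (chromosome 4, 212001271 to 212012721) encodes CD94, the partner chain of NKG2 receptors on NK cells and some cytotoxic T cells. It was at 6.40, 14.4 and 0.323 FPKM in A1, A6 and A12, and at 6.45, 11.4 and 0.225 FPKM in B5, B9 and B14. A1 and B5 were close, as were A6 and B9, and the log2 fold change was 0.14 (SE 1.20). The profile of Klrd1 was closest to that of Prf1 (root mean square difference 0.273), whereas Cd4 and Nkg7 were the least alike pair of the 10 (2.10).

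**Figure D3:**
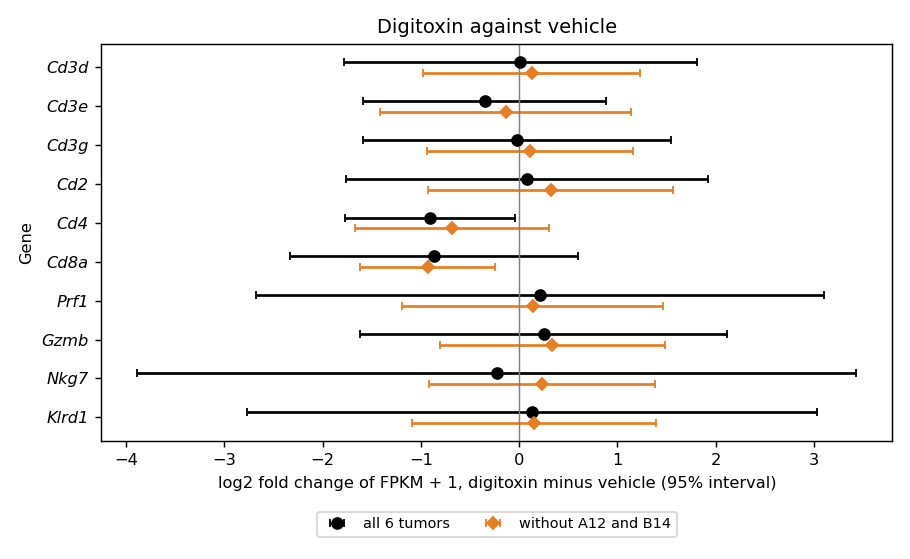
log2 fold change of FPKM + 1, digitoxin minus vehicle (x axis), for each gene (y axis) with its 95% interval, for all 6 tumors (black circles) and without A12 and B14 (orange diamonds). With all tumors only the interval of Cd4 lies below 0 (-1.77 to -0.0381), and without A12 and B14 only that of Cd8a does (-1.61 to -0.24).

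None of the 10 genes passed an adjusted p of 0.05 in limma's test, and neither did any of the 10749 rows tested (0%), of which 36 had an unadjusted p under 0.05. The adjusted p of the 10 genes ran from 0.926 to 0.998. Their log2 fold changes were split evenly, 5 higher and 5 lower with digitoxin (6 and 4 with median-of-ratios scaling, 2 and 8 with libraries scaled to equal sums, 7 and 3 without A12 and B14), with a median of -0.00393 against -0.163 for all rows. Single tumors decided that split: all 10 genes were lower with digitoxin without A6 or without B14, and 8 of 10 were higher without A12 or without B9. The standard errors ran from 0.36 for Cd4 to 1.51 for Nkg7, against a median of 0.41 over all rows, and the genes with the widest intervals were Nkg7, Klrd1 and Prf1. These p-values measure the spread between 3 tumors a group, and intervals this wide do not show that the groups were alike.

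The order of the levels differed between tumors. By mean FPKM over the 6 tumors the order was Cd8a, Nkg7, Cd3g, Cd4, Cd3d, Prf1, Klrd1, Cd2, Cd3e and Gzmb, and the ranges of neighbors in this order overlapped in every case. Cd8a was the first or the second in 5 of the tumors and the third in A6. Cd4 was the highest of the 10 in B14 and the second in A12, but the eighth in A6. Gzmb was the lowest in 5 tumors and next to the lowest in A6, where Cd3e was lowest.

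In 8 of the 10 genes, all but Cd3e and Cd4, A12 and B14 were the lowest 2 of the 6 tumors, which held for 3147 of 10749 rows, or 29.3%. In 4 of the 10, Prf1, Gzmb, Nkg7 and Klrd1, both were also more than 5-fold under each of the other tumors, which held for 577 rows, or 5.37%. The lowest of the other 4 tumors exceeded the higher of A12 and B14 by 19.8-fold for Klrd1, 13.2-fold for Gzmb, 9.52-fold for Prf1 and 8.43-fold for Nkg7. The same quantity was 2.82 for Cd3d, 2.30 for Cd2, 1.999 for Cd3g and 1.55 for Cd8a, so the granule and NK mRNAs were lower there by larger factors than those of the T cell receptor. These ranks follow the tumors and not the treatment, and whether such tissue held fewer cells or less mRNA per cell cannot be told apart in bulk RNA.

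Ratios within a tumor do not depend on how the libraries were scaled. Prf1 to Cd3e was 1.95, 2.46 and 0.341 in A1, A6 and A12, and 1.72, 1.82 and 0.0591 in B5, B9 and B14, so perforin mRNA was low in A12 and B14 even relative to Cd3e. The difference between digitoxin and vehicle was 1.05 on the log2 scale (exact permutation test, two-sided, p = 0.5) and 0.31 without A12 and B14. It was -0.59 without B14 alone and 1.94 without A12 alone, so leaving out B14 but not A12 turned its sign. Between tumors of the same replicate number, the digitoxin tumor had the higher ratio each time. Gzmb to Prf1 kept within 0.191 and 0.590 in all 6 tumors, with no such drop, and the group difference was -0.11 (exact permutation p = 0.9).

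Cd8a to Cd4 was 3.16, 3.70 and 1.06 in A1, A6 and A12, and 5.19, 2.94 and 0.676 in B5, B9 and B14. The ratio was lowest in B14 and A12, and the group difference was 0.0882 on the log2 scale (exact permutation p = 0.9). Cd3e relative to Ptprc, the leukocyte antigen CD45, was 0.115, 0.149 and 0.151 in A1, A6 and A12, and 0.0706, 0.169 and 0.173 in B5, B9 and B14. This ratio was not low in A12 and B14, and the group difference was 0.11 (exact permutation p = 1). Adjusted over the 4 ratios by the method of Benjamini and Hochberg, every p was 1, and 3 tumors against 3 cannot go below an exact p of 0.10.

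**Figure D4:**
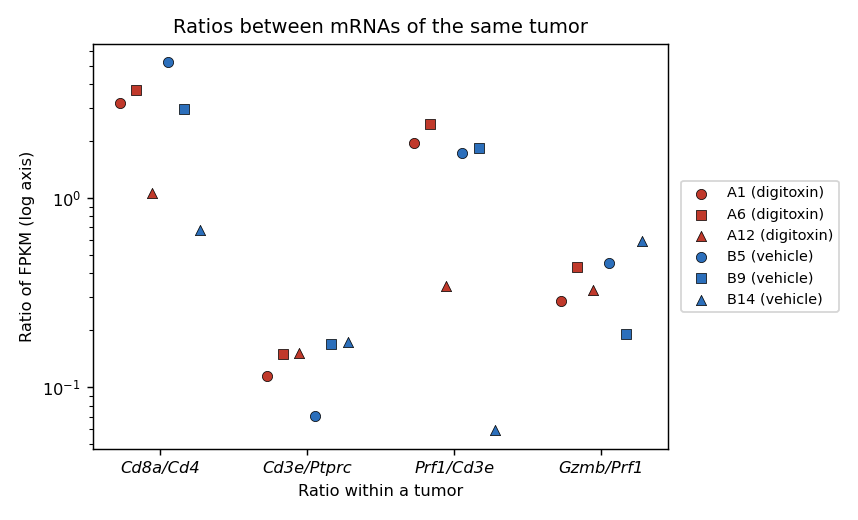
Ratio of FPKM between paired mRNAs of the same tumor (y axis, log scale) for 4 ratios (x axis), 1 point per tumor, red for digitoxin and blue for vehicle. Prf1/Cd3e is lowest in A12 (0.341) and B14 (0.0591), while Cd3e/Ptprc (0.0706 to 0.173) and Gzmb/Prf1 (0.191 to 0.590) do not set these tumors apart.

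The other genes of these pathways, taken from 6 lists, were read from the same fit. None of the 71 tested genes outside the 10 passed an adjusted or an unadjusted p of 0.05 in limma's test, 23 were higher and 48 lower with digitoxin, and their median log2 fold change was -0.10. The split was 39 higher and 32 lower with median-of-ratios scaling and 13 higher and 58 lower with libraries scaled to equal sums, so the counts by direction below rest on the FPKM as deposited. Without A12 and B14, 32 were higher and 37 lower among the 69 that still reached the minimum mean. A12 and B14 were the lowest tumors for 46 of the 71 and more than 5-fold under the others for 9, against the 29.3% and 5.37% of all rows given above.

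Of 14 further genes of the T cell receptor and its proximal signalling, 5 were higher and 9 lower with digitoxin (11 and 3 with median-of-ratios scaling), and A12 and B14 were lowest for 11. Ptprcap, which associates with CD45, was at 23.2, 51.6 and 3.81 FPKM in A1, A6 and A12, and at 21.5, 29.2 and 5.49 FPKM in B5, B9 and B14. Lcp2, the adaptor SLP-76, ranged from 7.62 FPKM in A12 to 24.4 in A6. Both had their lowest values in A12 and B14, as Cd3d and Cd3g did.

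Among 9 further co-receptor and costimulation genes, 1 was higher and 8 lower with digitoxin, and A12 and B14 were lowest for 3, near the share of all rows. Icos, a costimulatory receptor of activated T cells, was at 3.34, 0.590 and 12.4 FPKM in A1, A6 and A12, and at 6.24, 9.95 and 13.95 FPKM in B5, B9 and B14. Its highest values were in A12 and B14, the reverse of Cd3d and Cd3g. Pdcd1, encoding the checkpoint receptor PD-1, was listed at 0 in all 6 tumors.

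Among 12 further granule genes, 6 were higher and 6 lower with digitoxin (10 and 2 with median-of-ratios scaling), and A12 and B14 were lowest for 10 and more than 5-fold under the others for 4. Lamp1 and Srgn, the genes of highest mean in this list, are made by many cell types, and they ranged only from 375 to 511 FPKM and from 78.2 to 212 FPKM. Gzma, Gzmk and Gzmm, granzymes chosen here after their values were seen, were low in A12 and B14 as Prf1 was. Gzma was at 15.3, 35.2 and 0.197 FPKM in A1, A6 and A12, and at 9.50, 23.4 and 0.679 FPKM in B5, B9 and B14. Gzmc and Gzmf were listed at 0 in all tumors.

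Among 11 further NK receptor and adaptor genes, 5 were higher and 6 lower with digitoxin (7 and 4 with median-of-ratios scaling), and A12 and B14 were the lowest pair for all 11. Tyrobp, encoding the adaptor DAP12 that myeloid cells share, was at 1070, 1882 and 287 FPKM in A1, A6 and A12, and at 1170, 772 and 488 FPKM in B5, B9 and B14. Hcst, encoding DAP10, ranged from 13.6 FPKM in A12 to 139 in A6. Ncr1, encoding the NK receptor NKp46 and named after its values were seen, was at 1.28, 3.36 and 0.433 FPKM in A1, A6 and A12, and at 2.67, 4.20 and 0.290 FPKM in B5, B9 and B14. NK mRNAs were thus found in tumors of both groups, at levels that followed the tumor.

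Of 8 lymphocyte transcription factors, 1 was higher and 7 lower with digitoxin. Id2, which NK cells need but many other cells make, was at 97.8, 64.3 and 87.9 FPKM in A1, A6 and A12, and at 111, 100.1 and 118 FPKM in B5, B9 and B14. The groups did not overlap for Id2 or for Ikzf1, the latter named after its values were seen, against 3.26% of all rows, and neither passed an unadjusted p of 0.05 in limma's test (0.119 and 0.0681). Ets1 ranged from 18.7 FPKM in A6 to 37.7 in B14, with its higher values in A12, B9 and B14. Tbx21, the T-bet gene and a further one named after its values were seen, was at 3.05, 7.33 and 0.173 FPKM in A1, A6 and A12, and at 1.43, 5.19 and 0.151 FPKM in B5, B9 and B14, which is the order of Gzmb.

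Of 17 homing and effector cytokine genes, 5 were higher and 12 lower, and A12 and B14 were lowest for 9. Ccl5, a chemokine that cytotoxic T cells and NK cells store and secrete, was at 60.6, 203 and 3.27 FPKM in A1, A6 and A12, and at 58.7, 127 and 2.69 FPKM in B5, B9 and B14. Cxcl16, a chemokine made by macrophages and other cells, had its highest values in A12 (198 FPKM) and B14 (189 FPKM). Ccl5 and Cxcl16 thus ran opposite ways, with A12 and B14 at one end of each. Il2 and Il7r were listed at 0 in all 6, as was Col1a2, a collagen gene that fibroblasts express, so such entries may not mean absence.

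Other cell types also differed between the tumors, and their part in the values above was not tested. The summed level of 7 pan-leukocyte mRNAs was 876, 1067 and 221 FPKM in A1, A6 and A12, and 844, 829 and 414 FPKM in B5, B9 and B14. A12 and B14 were the lowest 2 for 6 of the 7, but not for Cd53. Cd53, a membrane protein of most leukocytes, was at 94.1, 56.1 and 47.7 FPKM in A1, A6 and A12, and at 149, 95.6 and 97.0 FPKM in B5, B9 and B14. Its groups did not overlap (log2 fold change -0.81, unadjusted p = 0.0493, adjusted p = 0.926, limma). This held for no other of the 7, and for 3.26% of all rows toward lower levels. The sum of 9 neutrophil mRNAs ran from 1348 FPKM in A12 to 62430 in A6. Endothelial mRNAs were at 140 and 165 FPKM in A12 and B14 against 437 to 1750 in the others.

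Fibroblast mRNAs ran the other way, at 2894 FPKM in A12 and 4062 in B14 against 222 to 844 in the others. Cell cycle mRNAs were at 674 and 610 FPKM in A12 and B14 and at 312 to 458 in A1, B5 and B9, but at 48.9 in A6, the tumor with the highest Cd3d, Cd3g, Cd2, Gzmb, Nkg7 and Klrd1. The B and plasma cell sum, from 181 FPKM in A6 to 351 in A12, was mostly Sdc1, which epithelial cells also express. Of its other members, named after their values were seen, Mzb1 was at 0.189 FPKM in A12 and 0.126 in B14 against 4.26 to 10.3 elsewhere. Ms4a1, encoding CD20 of B cells, was listed at 0 in B14 and at 0.120 FPKM in A12, against 1.24 to 2.99 elsewhere. The mast cell sum ranged from 41.0 FPKM in A1 to 141 in B5. That sum was mostly Kit in A12 and B14 (41.6 and 51.9 FPKM), while A12 and B14 were lowest for 7 of 8 tested mast cell genes and more than 5-fold under the others for 6. The markers of highest mean in these lists were Laptm5 (leukocytes), Aif1 (macrophages), S100a8 (neutrophils), Sdc1 (plasma cells), Kit (mast cells), Scgb1a1 (lung airway), Cldn5 (endothelium), Col1a1 (fibroblasts) and Cdk1 (cell cycle). The macrophage list did not move as one, since A12 and B14 were lowest for 5 of its 14 genes (Cd68, Csf1r, Mrc1, Marco and Aif1), while C1qa, C1qb, Cd163 and Itgam were highest in these tumors. These macrophage genes were named after their values were seen.

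**Figure D5:**
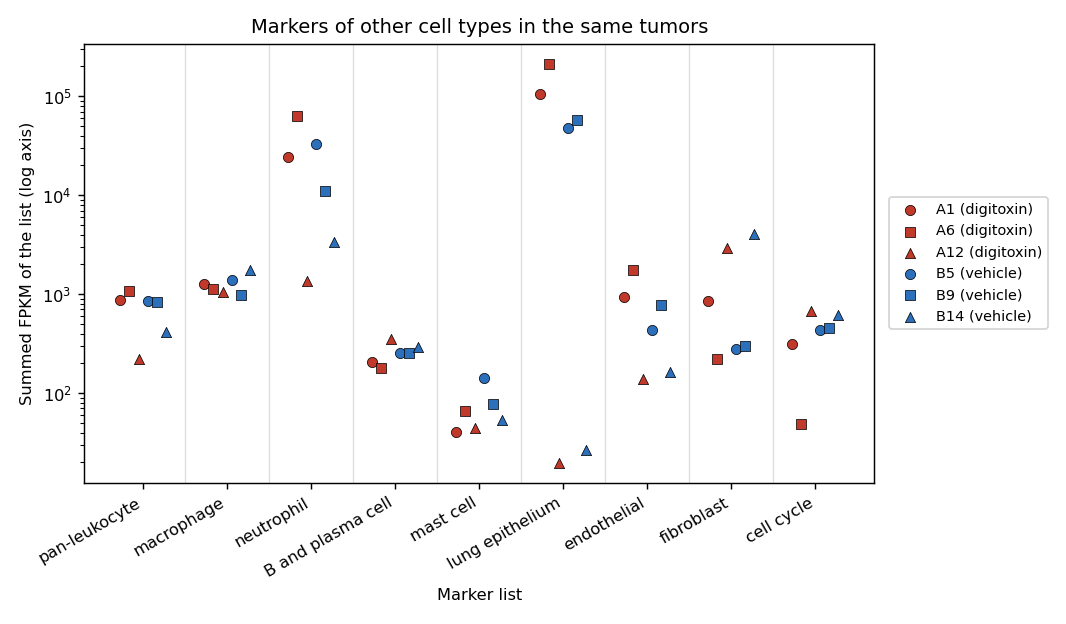
Summed FPKM (y axis, log scale) of 9 lists of markers (x axis), 1 point per tumor, red for digitoxin and blue for vehicle. A12 and B14 (triangles) are lowest for lung epithelium (19.9 and 26.7), neutrophils, endothelium and leukocytes, and highest for fibroblasts (2894 and 4062) and the cell cycle.

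The genes whose profile over the 6 tumors was most like that of the CD3 chains were sought among 6936 rows with a range of at least 1 on the log2 scale. The closest to the mean of Cd3d, Cd3e and Cd3g was Faslg, the death ligand of cytotoxic lymphocytes (root mean square difference 0.0817), followed by Trim34 (0.0869), Lck, the kinase that the co-receptors bring to the T cell receptor (0.117), Meox2 (0.118) and Lurap1 (0.132). Lck was at 11.5, 14.9 and 4.71 FPKM in A1, A6 and A12, and at 11.0, 19.1 and 6.52 FPKM in B5, B9 and B14. Faslg was lower, between 0.0867 FPKM in A12 and 3.26 in B9. As for Gzmb, the 1 FPKM added before taking logs understates the differences of a gene this low. Its likeness to the CD3 chains therefore depends on that scale. The same holds for Meox2 (0.295 to 3.69 FPKM) and Lurap1 (0.0991 to 2.69 FPKM).

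The closest to the mean of Prf1, Gzmb and Nkg7 were Ankrd29 (0.108), Rab38 (0.112), B4galt4 (0.152), Avil (0.161) and Eps8l1 (0.165). Rab38, a small GTPase of lysosome-related organelles, was at 21.2, 37.0 and 2.28 FPKM in A1, A6 and A12, and at 15.5, 29.6 and 2.20 FPKM in B5, B9 and B14. None of these 5 was on the lists of T cell or NK cell genes. The CD3 profile returned Lck and Faslg, which were, though Faslg with the limit given above. The profiles share 6 libraries and the lung mRNA of 4 of them, and no test was made of the likeness.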

How the data were processed

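The authors took RNA from 6 PAIII tumors (3 digitoxin, 3 vehicle), made libraries with a TruSeq RNA v2 kit, sequenced single reads, and used TopHat 2 with Bowtie 2 for alignment and Cufflinks 2 for quantification. They deposited FPKM per gene and tumor, with no counts. The methods write RPKM, which means the same for single reads. The submitters' processing notes name a human genome build although the samples and gene loci are of rat, so the rat build is not given in the sources used here. The strand in counting and any scaling between tumors are not given there either. Cuffdiff, which the study used, needs reads and was not repeated.

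A symbol on several rows was read from the row of highest mean. Groups were compared on log2(FPKM + 1) as deposited, with limma 3.58.1 (lmFit, eBayes with trend) in R 4.3.3, over the 10749 of 17557 rows whose mean reached 1 FPKM, two-sided, with Benjamini-Hochberg adjustment over all rows. Ratios within a tumor were compared with an exact permutation test over 20 assignments. Python 3.11.15, numpy 2.4.6, pandas 2.3.3, scipy 1.17.1 and matplotlib 3.10.9 were used, and the fit was tested on simulated data. The depth is unknown, so no counting error is given.

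The 10 genes, the lists and the tests were chosen with earlier results of these data known. By rule, genes named besides the 10 were the 2 of highest mean FPKM in each pathway list, any pathway gene with an unadjusted p under 0.05, the gene of highest mean in each marker list, and the 5 nearest profiles of the CD3 and of the granule genes. Any other gene named was picked after its values were seen or because it was listed at 0. Alternatives were median-of-ratios scaling, scaling to equal FPKM sums, a pseudocount of 0.1, all rows above 0, no trend, the replicate block, and tumors left out. The pairing was checked by correlating, across genes, each tumor's deviation from its group mean. It gave r = 0.426, 0.606 and 0.869 for replicates 1, 2 and 3. A1 with B9 (0.644) and A6 with B5 (0.612) gave higher r than A1 with B5 and A6 with B9. Only A12 with B14, the tumors with very little lung mRNA, stood out as a pair. No label says what a number marks. The numbers were used as pairs in the block fit only, and its p-values rest on that choice.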

Additional observations from a re-analysis of the deposited data

How the results depend on the processing

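No setting called any of the 10 genes at an adjusted p of 0.05 (limma). Over all rows the count called was 0, except 2 (Mir3561 and Mir3567) without A12 and B14, and 0 to 2 when single tumors were left out (2 without B14). With the replicate block the count stayed 0 and the log2 fold changes were unaltered, the unadjusted p of Cd8a fell under 0.05 (0.0146), and the ratio of Prf1 to Cd3e stayed at 1.05 (exact p = 0.25). The block changed no other call. Cd4 and Cd8a kept their direction in all settings. Leaving out single tumors moved the median of the 10 genes from -0.57 to 0.71, Cd3d from -0.51 to 0.65, Cd3e from -0.58 to 0.0334, Cd3g from -0.53 to 0.52, Cd2 from -0.51 to 0.76, Prf1 from -0.81 to 1.16, Gzmb from -0.31 to 0.90, Nkg7 from -1.27 to 1.27 and Klrd1 from -0.86 to 1.14. The log2 ratios moved from -0.75 to 0.72 (Cd8a to Cd4), -0.32 to 0.33 (Cd3e to Ptprc), -0.59 to 1.94 (Prf1 to Cd3e) and -0.59 to 0.22 (Gzmb to Prf1).

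Signs also turned with a pseudocount of 0.1 (Cd3d -0.00564), with scaling to equal FPKM sums (Cd3d -0.16, Cd2 -0.10, Klrd1 -0.00687), with median-of-ratios scaling (Cd3g 0.17), with 1 FPKM added to both genes of a ratio (Gzmb to Prf1 0.0391), and without A12 and B14 (Cd3g 0.11, Nkg7 0.23, Cd8a to Cd4 -0.19, Gzmb to Prf1 0.26). Scaling moved the median of all rows from -0.163 to 0.0161 (median-of-ratios) or -0.336 (equal sums), and 6 or 2 of the 10 genes were then higher with digitoxin, against 5. The cause was not tested. With 3 tumors a group, unknown depth and no block, the interval of Prf1 reached from -2.68 to 3.10, so smaller differences were not detectable in that fit. Without A12 and B14 its interval was narrower, from -1.19 to 1.47. With the replicate block its SE was 0.37, against 1.19 without the block.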

Other observations

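Some lymphocyte regulators had the reverse pattern of the CD3 chains, and were picked after their values were seen. Gata3, a T cell and epithelial transcription factor, was at 4.41, 0.166 and 11.6 FPKM in A1, A6 and A12, and at 4.06, 8.91 and 11.3 FPKM in B5, B9 and B14. Prdm1, the Blimp-1 gene, was at 1.97, 1.81 and 6.66 FPKM in A1, A6 and A12, and at 3.15, 4.17 and 11.1 FPKM in B5, B9 and B14. Both were highest in A12 and B14, where Cd3d was lowest. Xcl1, a chemokine of cytotoxic lymphocytes, was at 18.7 FPKM in B9 against 0.642 to 8.15 in the others. Ifng, encoding interferon gamma, was listed at 0 in A1, A6 and B14 and was under 1 FPKM in the others.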
